A study of Mus musculus with 6 samples.

Results

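The 32 genes described here form the core of the Notch signalling pathway: receptors, ligands, the enzymes that modify and cut them, the nuclear complex, direct targets and modulators. They were chosen by name and not by their values, though with earlier results of these data known. On the Affymetrix mouse whole-genome array used, 31 of the 32 were read by a probe set that the array annotation gives to exactly 1 gene, out of 18193 genes read in this way. No such probe set read Maml3, so it was not analysed here. Where several probe sets read a gene, the one with the highest mean over the 6 arrays stood for it.

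The cells were Flk1-positive cells taken on day 4 from embryoid bodies, the aggregates in which mouse embryonic stem (ES) cells differentiate when kept in suspension without leukaemia inhibitory factor. The submitters treat them as a culture counterpart of the haemangioblast, the mesodermal precursor of blood and endothelium. The 3 wild-type arrays came from Ldb1+/+ and the 3 knockout arrays from Ldb1-/- ES cells, in which the gene for the adaptor protein LDB1 was targeted. The labels call the arrays biological replicates numbered 1 to 3, without saying what a number stands for, which part of Ldb1 was deleted or whether a genotype was 1 clone. No other treatment is named.

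In Notch signalling, a ligand of the Delta-like or Jagged family on one cell binds a Notch receptor on its neighbour. The receptor is then cut by an ADAM protease and by gamma-secretase, and its freed intracellular part joins RBPJ and a Mastermind protein on DNA to switch on genes such as those of the Hes and Hey families. In the embryo the pathway acts in the rhythmic formation of somites from presomitic mesoderm, in the choice of arterial fate and in the emergence of blood stem cells from endothelium. Bulk RNA does not separate these cell types: fewer cells that express a gene and less of its RNA per cell cannot be told apart in the values below.

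The targeted gene was checked first. Ldb1 read 7.78, 7.31 and 8.31 in wild-type arrays 1, 2 and 3 and 7.25, 6.60 and 8.25 in the knockout arrays of the same numbers, all on the log2 scale. The knockout array was lower in 3 of 3 pairs, but the genotypes overlapped, and the difference of −0.43 (SE 0.45) was not called (limma, adjusted p = 1.00). Its only probe set may lie outside the deleted stretch, which the labels do not give, so the arrays neither bear out nor contradict the labels. Kdr, the gene for Flk1, read 12.44, 12.14 and 11.78 in the wild-type and 12.19, 11.33 and 11.58 in the knockout arrays. Of the 8 markers listed for Flk1-positive mesoderm 7 were read, with a mean log2 level of 11.12 to 11.79 over the 6 arrays. The array medians lay between 5.71 and 5.77. The arrays of number 3 stood apart in both genotypes: their 3′ minus 5′ gap in the Actb control was 1.47 in wild-type and 1.25 in knockout, against 2.90 to 3.12 in the other 4 arrays.

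None of the 31 Notch genes passed the test between the genotypes. At an adjusted p under 0.05, limma called 0 of the 31, and 0 again with the replicate number as a block, a fit that compares each knockout array with the wild-type array of its own number. The background was low too: the unblocked fit called 0.022% of all genes and the blocked fit 0.341%. At an unadjusted p under 0.05 the unblocked fit gave 0 of the 31, against 3.85% of all genes, and the blocked fit gave 2, Dll3 and Rfng, against 8.94%. Of the 31 genes, 18 had a lower and 13 a higher mean in the knockout, and their median difference of −0.01 was that of all genes (−0.01). The genotypes did not overlap for 1 of the 31, Hes5, against 7.92% of all genes. The sign was the same in all 3 pairs for 10 of the 31, against 28.4% of all genes. The 95% interval of the difference ran from −0.14 to 0.41 for Hes5, the narrowest of the 31, and from −3.04 to 0.71 for Dll3, the widest. A missed threshold therefore does not show that a gene was unaffected.

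**Figure D1:**
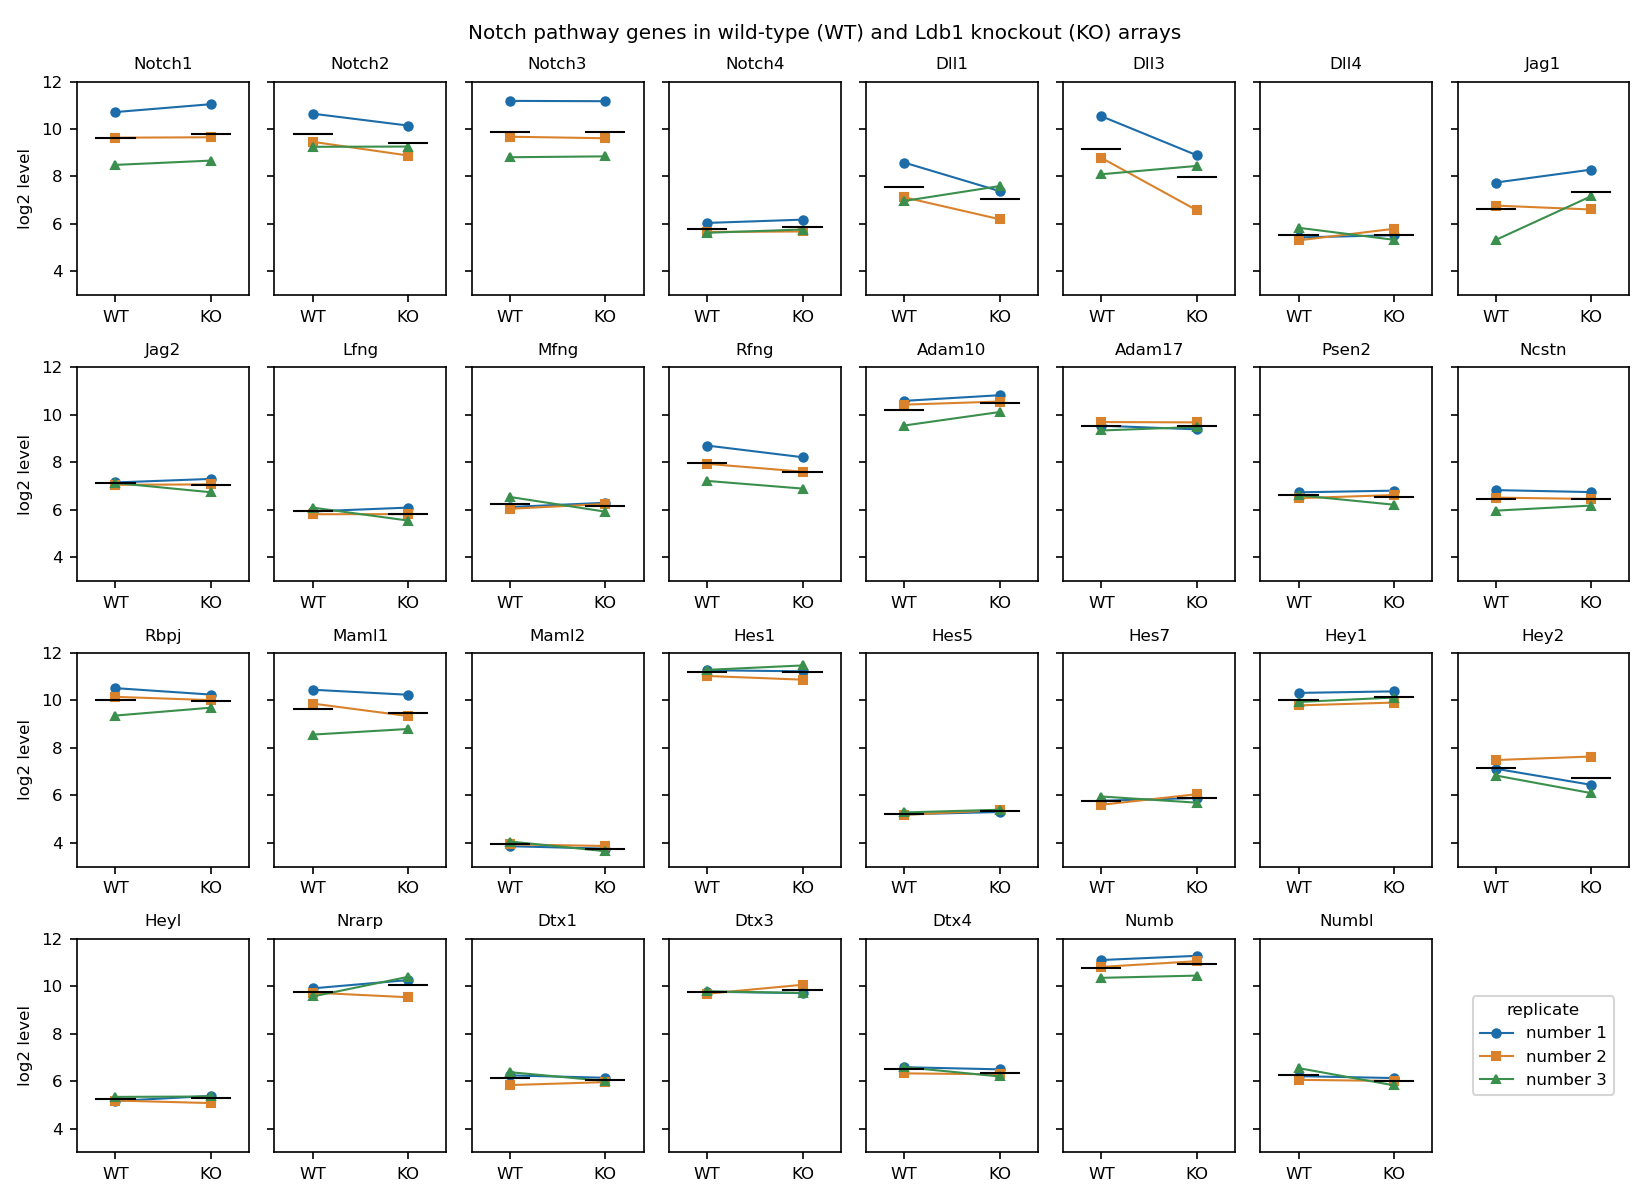
Log2 level (y axis) of each of the 31 Notch genes in the wild-type (WT) and knockout (KO) arrays (x axis). A line joins the 2 arrays of one replicate number and black bars are the means of 3 arrays. The points of the receptors Notch1 and Notch3 spread by number and hardly by genotype, while Dll1 and Dll3 lay lower in the knockout in the pairs of numbers 1 and 2 and higher in that of number 3.

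Of the 4 receptors, Notch1, Notch2 and Notch3 varied with the replicate number rather than passing the genotype test. Notch1, which is required for blood stem cell emergence and for artery formation in the mouse, read 10.71, 9.63 and 8.49 in the wild-type and 11.04, 9.65 and 8.67 in the knockout arrays. Notch3, known for its role in arterial smooth muscle, read 11.18, 9.67 and 8.81 in the wild-type and 11.17, 9.61 and 8.85 in the knockout arrays. In both genes the 2 arrays of number 1 were the highest and the 2 of number 3 the lowest, and each knockout array lay close to the wild-type array of its number. The knockout minus wild-type difference was 0.18 (95% interval −1.57 to 1.92) for Notch1 and −0.01 (95% interval −1.81 to 1.79) for Notch3. Within pairs, the 3 differences of Notch3 were −0.01, −0.06 and 0.04, and those of Notch1 were 0.33, 0.02 and 0.18.

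Notch2, the receptor needed in the mouse for marginal zone B cells and bile ducts, read 10.64, 9.46 and 9.25 in the wild-type and 10.14, 8.88 and 9.26 in the knockout arrays. Its knockout arrays were lower in the pairs of numbers 1 and 2 and level in that of number 3. The mean difference was −0.36 (SE 0.45; limma, adjusted p = 1.00, and 0.606 with the block). Notch4, an endothelial receptor, read between 5.63 and 6.18 in all 6 arrays, and its genotypes overlapped with a difference of 0.10 (SE 0.19).

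Among the ligands, Dll1 and Dll3 were lower in the knockout in the pairs of numbers 1 and 2 and higher in that of number 3. Dll3, an atypical ligand that acts in the somite clock rather than by activating receptors on neighbours, read 10.54, 8.78 and 8.09 in the wild-type and 8.89, 6.58 and 8.44 in the knockout arrays. Knockout minus wild-type, the pairs of numbers 1 and 2 differed by −1.64 and −2.21 and the pair of number 3 by 0.35. Its mean difference of −1.17 was the largest among the 31 genes, with a 95% interval of −3.04 to 0.71 (limma, adjusted p = 1.00, and 0.483 with the block). With 1 array left out it ranged from −1.69 without wild-type array 3 to −0.47 without wild-type array 1 or knockout array 2. Dll1, the main activating ligand of presomitic mesoderm, read 8.59, 7.12 and 6.97 in the wild-type and 7.38, 6.20 and 7.60 in the knockout arrays. Its pair differences were −1.20, −0.92 and 0.63, with a mean of −0.50 (SE 0.53; limma, adjusted p = 1.00). Without wild-type array 1 that mean difference was 0.01, so its sign rested on this array.

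Jag1, a ligand active in arterial and cardiac development, had another pattern. It read 7.74, 6.77 and 5.33 in the wild-type and 8.29, 6.61 and 7.17 in the knockout arrays. Wild-type array 3 was the lowest of the 6, and the pair differences were 0.54, −0.16 and 1.84. The mean difference of 0.74 (95% interval −0.85 to 2.33) was the largest positive one among the 31 genes and missed the threshold (limma, adjusted p = 1.00). It was 0.10 without wild-type array 3 and 1.31 without wild-type array 1. Jag2, a ligand known from limb and thymus development, read 7.15, 7.05 and 7.12 in the wild-type and 7.30, 7.06 and 6.73 in the knockout arrays, a difference of −0.07. Dll4, the ligand of arterial and tip cells of growing vessels, read 5.43, 5.31 and 5.84 in the wild-type and 5.52, 5.80 and 5.33 in the knockout arrays. Its mean lay below 5.74, the median of all array values, and its pair differences of 0.09, 0.49 and −0.51 had no common sign.

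**Figure D2:**
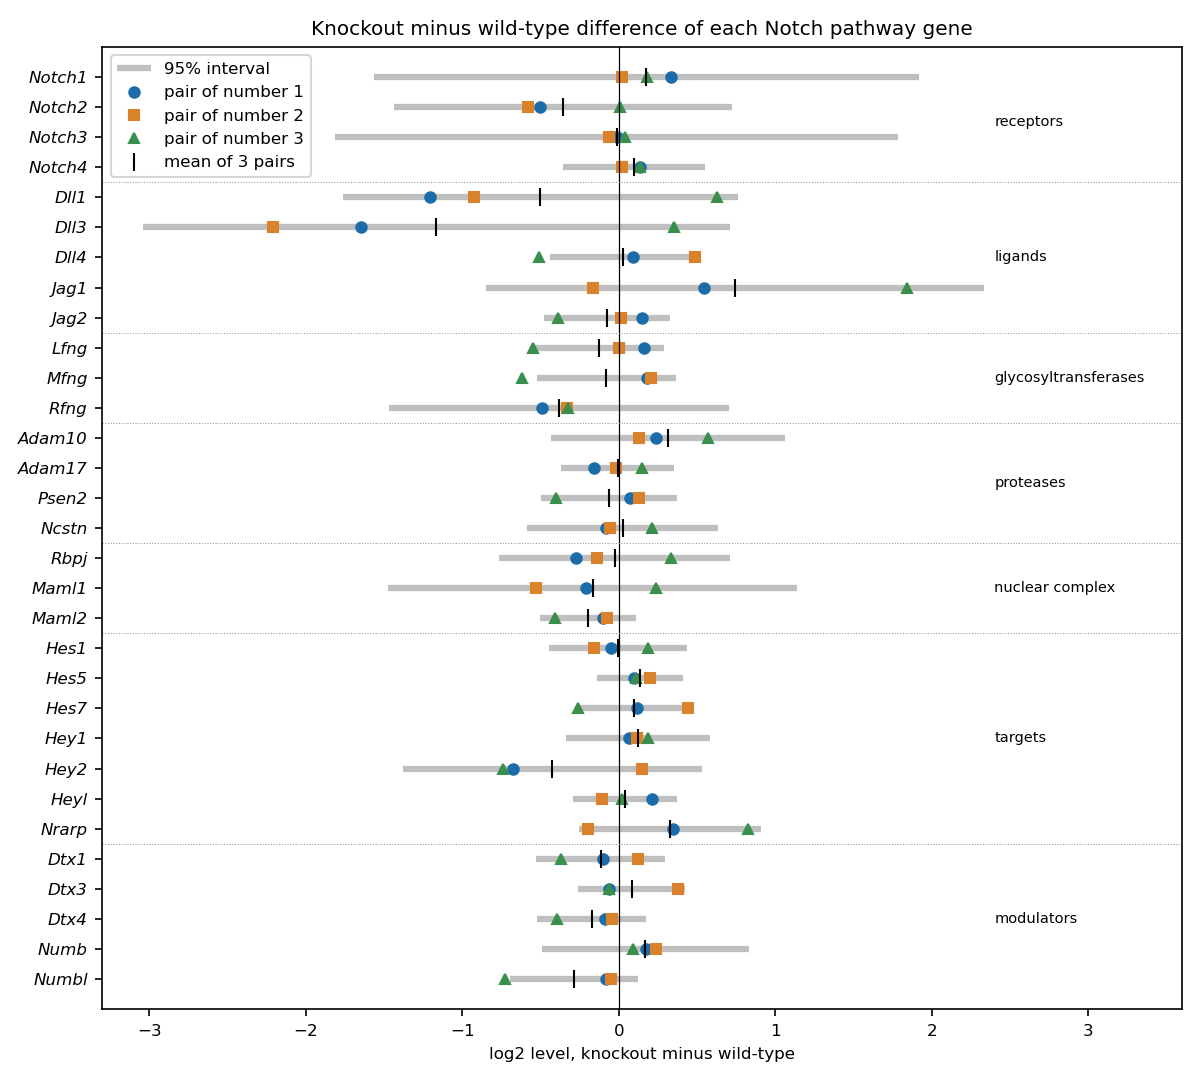
Knockout minus wild-type difference (x axis, log2) of each Notch gene (y axis), by role. Coloured points are the differences of the 3 numbered pairs, black ticks their means, and grey bars the 95% limma intervals of the unblocked fit. The Dll3 points of numbers 1 and 2 lie at −1.64 and −2.21 and that of number 3 at 0.35, and all 31 intervals include 0.

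The pairs themselves were compared with a genotype-by-number term added to the blocked fit, for 1 number at a time, an analysis chosen after the pair differences were seen. For number 3 limma called 4 of the 31 genes, against 7.08% of all genes. The term, the difference in the pair of number 3 minus that in the other pairs, was 2.28 for Dll3 (95% interval 1.70 to 2.85; limma, adjusted p = 0.00148) and 1.69 for Dll1 (limma, adjusted p = 0.0039). It was 1.65 for Jag1 (limma, adjusted p = 0.00931) and −0.81 for Mfng (limma, adjusted p = 0.0492). At an unadjusted p under 0.05 the term of number 3 gave 13 of the 31 genes and 4794 of the 18193. The terms of numbers 1 and 2 were called by limma for 0 of the 31 and 0% of all genes. At an unadjusted p under 0.05 they gave 0 and 3 of the 31, against 173 and 395 of the 18193. Each fit leaves 1 residual degree of freedom per gene, and number 3 was already known to stand apart, so these p-values are not independent evidence for the pattern.

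The blocked genotype fit was also repeated without each number in turn. Without number 3 it called 3 of the 31 genes, all lower in the knockout, against 4.48% of all genes, with differences of −1.93 for Dll3, −1.06 for Dll1 and −0.54 for Notch2. Without number 2 it called 1 of the 31, Jag1, with a difference of 1.19, against 1.47% of all genes. Without number 1 it called 0 of the 31, against 0.275%. None of the 4 calls was made with all 3 pairs. The signs of the pairs were seen before these values were read. For each of the 4 genes, leaving out the pair of the other sign leaves 2 pairs that agree. All 4 calls, those of Dll1, Dll3, Notch2 and Jag1, are therefore given as a description.

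Some mesoderm markers shared the pair signs of Dll1 and Dll3, lower in the knockout in numbers 1 and 2 and higher in number 3. These signs were found for 9 of the 31 Notch genes, or 29.0%, and for 15.0% of all genes. They were found for 2 of the 10 paraxial and presomitic markers, Tbx6 and Ripply2. The same held for 2 of the 7 read markers of Flk1-positive mesoderm, Pdgfra and Mesp1. The leading genes of the paraxial and presomitic list had other signs. Mesp2, a segmentation gene that is itself a Notch target, differed within pairs by −1.22, −1.01 and −0.24. Tcf15 differed by −0.28, −0.13 and −0.34 and Msgn1 by −0.18, 0.40 and −0.64. Among the Flk1-positive markers the genotype-by-number term of number 3 was 1.24 for Mesp1 and 1.21 for Pdgfra. It was −0.77 for Tal1 and −0.78 for Lmo2. In the paraxial and presomitic list the term was positive for Mesp2 (0.87) and Tbx6 (0.62), as for Dll1 and Dll3. It was negative there for Tcf15 (−0.13), Msgn1 (−0.74) and Uncx (−0.64). Over that list, 10 of 10 markers were read, 5 of them below the array median, and 0 were called in the unblocked or the blocked fit. Its mean log2 level ranged from 5.40 to 5.88 in wild-type and from 5.27 to 5.57 in knockout arrays. The part of cell mix in the Dll1 and Dll3 values was not tested.

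The glycosyltransferases Lfng, Mfng and Rfng add sugar to Notch receptors and tune which ligand they respond to. Rfng read 8.70, 7.93 and 7.21 in the wild-type and 8.21, 7.60 and 6.89 in the knockout arrays. The knockout array was the lower one in 3 of 3 pairs, by a similar step each time (−0.49, −0.33 and −0.32), but the genotypes overlapped, and the numbers lay further apart than the genotypes did. Its difference of −0.38 had a blocked 95% interval of −0.68 to −0.08, and its blocked adjusted p of 0.409 (limma) was the lowest of the 31 genes. A second Rfng probe set, whose mean also lay above the array median, did not repeat the lower level in 3 of 3 pairs. There the knockout was higher in the pairs of numbers 1 and 2 and lower in that of number 3, with a mean difference of −0.086. Rfng lies on chromosome 11 in the GRCm38.p6 annotation, as do Maml1 and Hes7, and the median difference of the 1443 genes of that chromosome was −0.17. Lfng, the cycling regulator of the somite clock, read 5.93, 5.81 and 6.09 in the wild-type and 6.09, 5.81 and 5.54 in the knockout arrays, and Mfng read 6.11, 6.04 and 6.54 and 6.29, 6.24 and 5.92. In both, the knockout was lower in the pair of number 3 and not in the other pairs.

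None of the 4 protease genes passed the test between the genotypes. Adam10, which makes the first cut in the bound receptor, read 10.58, 10.42 and 9.55 in the wild-type and 10.82, 10.56 and 10.11 in the knockout arrays, higher in the knockout in 3 of 3 pairs with a mean difference of 0.31 (SE 0.31; limma, adjusted p = 1.00). Adam17, a related sheddase, read 9.54, 9.69 and 9.34 in the wild-type and 9.38, 9.68 and 9.49 in the knockout arrays, a difference of −0.01 (95% interval −0.37 to 0.35). Of the gamma-secretase subunits, the catalytic Psen2 differed by −0.07 (SE 0.18) and Ncstn, which holds the substrate, by 0.02 (SE 0.26). The genotypes overlapped for all 4 genes.

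In the nuclear complex, Rbpj, the DNA-binding protein of the pathway, read 10.52, 10.15 and 9.37 in the wild-type and 10.25, 10.01 and 9.70 in the knockout arrays. Its difference was −0.03 (95% interval −0.76 to 0.71). Maml1, a Mastermind coactivator, read 10.45, 9.87 and 8.56 in the wild-type and 10.24, 9.34 and 8.80 in the knockout arrays, with a difference of −0.17 (SE 0.55). Neither gene kept 1 sign over the 3 pairs. Maml2, a second coactivator, read 3.86, 3.94 and 4.06 in the wild-type and 3.76, 3.87 and 3.65 in the knockout arrays. It lay below the array median in all 6 arrays and was lower in the knockout in 3 of 3 pairs, with a mean difference of −0.19 (limma, adjusted p = 1.00).

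Promoters of Notch targets and of Lfng are shown because RBPJ is known to bind the sequence GTGGGAA. Copies were counted at any distance and in any order, so 2 copies in a window are not shown to form a paired site. RefSeq promoter windows of the GRCm38.p6 assembly ran from 250 bases before to 50 after a start position. They were matched for 26 of the 32 genes, with 32 windows in all, and for 4 of the 7 targets, Hes5, Hes7, Hey2 and Nrarp. The start position is not always the start of the annotated gene. The genes Hes5 and Hes7 begin earlier, at chr4:154960626 and chr11:69118906, so their windows lie inside them. The unmatched genes were Hes1, Hey1, Heyl, Dtx3, Dtx4 and Mfng. GTGGGAA on either strand occurred in 5 of the 32 windows, or 15.6%, those of Hes5, Hes7, Hey2, Lfng and Psen2, against 6.38% of all 32851 mouse windows. Hes5 and Hey2 held 2 copies each, and 2 or more were found in 0.256% of all windows. The shorter core TGGGAA, which every GTGGGAA contains, occurred in 9 of the 32 windows and in 25.6% of all windows. The GATA-type motifs AGATAA or TGATAA, searched because LDB1 works with GATA factors in blood cells, occurred in 1 of the 32 windows, that of Numbl, and in 18.6% of all windows. In Hes5 (chr4:154960673-154960972, plus strand) the copies began at −226 and −83 relative to the start position of the window's definition, on opposite strands. In Hey2 (chr10:30842734-30843033, minus strand) they began at −207 and −4, also on opposite strands. Hes7 (chr11:69120203-69120502, plus strand) and Lfng (chr5:140607091-140607390, plus strand) held 1 copy each. Each window is printed 5′ to 3′ on the strand of its gene, and capitals mark GTGGGAA, or TTCCCAC where it lies on the other strand.
Hes5: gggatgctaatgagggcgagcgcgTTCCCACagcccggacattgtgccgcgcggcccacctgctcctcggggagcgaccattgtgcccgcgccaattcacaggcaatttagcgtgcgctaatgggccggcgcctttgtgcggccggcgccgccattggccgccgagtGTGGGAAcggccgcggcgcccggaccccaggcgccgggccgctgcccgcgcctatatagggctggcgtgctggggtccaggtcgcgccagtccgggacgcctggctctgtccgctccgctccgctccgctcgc
Hey2: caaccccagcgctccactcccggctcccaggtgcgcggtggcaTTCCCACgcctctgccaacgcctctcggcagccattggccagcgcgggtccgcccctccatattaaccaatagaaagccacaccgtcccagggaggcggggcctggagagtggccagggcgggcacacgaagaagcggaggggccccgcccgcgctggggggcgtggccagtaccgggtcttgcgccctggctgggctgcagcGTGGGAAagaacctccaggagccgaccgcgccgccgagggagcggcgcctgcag
Hes7: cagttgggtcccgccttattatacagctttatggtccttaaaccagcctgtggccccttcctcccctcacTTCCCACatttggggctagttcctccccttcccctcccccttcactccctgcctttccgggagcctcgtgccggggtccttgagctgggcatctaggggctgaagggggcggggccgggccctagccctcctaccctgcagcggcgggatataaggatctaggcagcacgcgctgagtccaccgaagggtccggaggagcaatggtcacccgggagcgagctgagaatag
Lfng: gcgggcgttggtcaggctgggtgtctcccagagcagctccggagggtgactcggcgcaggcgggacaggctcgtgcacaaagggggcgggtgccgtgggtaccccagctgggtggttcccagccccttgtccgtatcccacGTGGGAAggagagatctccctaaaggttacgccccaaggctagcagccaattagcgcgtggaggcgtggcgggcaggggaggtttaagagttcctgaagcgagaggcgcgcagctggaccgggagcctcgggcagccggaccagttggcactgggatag
A match is a description of the letters and no evidence of binding in these cells.

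None of the 7 targets passed the test between the genotypes. Hes1, a repressor widely used as a Notch readout, read 11.28, 11.03 and 11.29 in the wild-type and 11.23, 10.88 and 11.48 in the knockout arrays, and its difference of −0.01 had a 95% interval of −0.45 to 0.43. Hey1, a target in arterial endothelium and heart, read 10.32, 9.79 and 9.94 in the wild-type and 10.38, 9.91 and 10.12 in the knockout arrays, with a difference of 0.12 (95% interval −0.34 to 0.59). Each knockout array of these genes lay within 0.19 of the wild-type array of its number. Hes5, whose window holds 2 RBPJ motifs, read 5.20, 5.18 and 5.28 in the wild-type and 5.30, 5.38 and 5.40 in the knockout arrays. All 3 of its knockout arrays lay above all 3 wild-type arrays, by 0.14 on average (limma, adjusted p = 1.00), but every value was below the array median.

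Hey2, which patterns arteries and ventricular muscle and also has 2 motifs in its window, had pairs that pointed both ways. It read 7.13, 7.49 and 6.84 in the wild-type and 6.45, 7.64 and 6.10 in the knockout arrays. The knockout was lower in the pairs of numbers 1 and 3 and not in that of number 2, and the mean difference of −0.42 (SE 0.40) was not called (limma, adjusted p = 1.00, and 0.631 with the block). Hand1, a cardiac and extraembryonic mesoderm factor, read 11.05, 10.83 and 10.04 in the wild-type and 9.46, 10.78 and 8.37 in the knockout arrays, with pair differences of −1.59, −0.05 and −1.67. Tbx20 and Gata4, the other leading cardiac markers, differed within pairs by −0.95, 0.22 and −0.76 and by −0.56, −0.41 and 0.09. All 8 markers of the cardiac list were read, 0 were called in the unblocked and 1, lower, in the blocked fit, and their mean log2 level ranged from 8.75 to 9.67 in wild-type and from 7.99 to 8.45 in knockout arrays. The part of these cells in the Hey2 values was not tested.

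Nrarp, a feedback inhibitor that Notch itself induces, read 9.91, 9.73 and 9.57 in the wild-type and 10.26, 9.54 and 10.40 in the knockout arrays. The knockout was higher in 2 of 3 pairs, and the mean difference of 0.33 (95% interval −0.26 to 0.91) missed the threshold (limma, adjusted p = 1.00). Hes7, the oscillator of the somite clock, read 5.78, 5.61 and 5.96 in the wild-type and 5.89, 6.05 and 5.70 in the knockout arrays, without a common sign. Heyl, a target in smooth muscle and somites, differed by 0.04 (SE 0.14) and lay below the array median. In all, 4 of the 31 genes read below that median on average: Dll4, Maml2, Hes5 and Heyl.

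Among the modulators, Numb, an endocytic inhibitor of Notch that is handed to one daughter cell in asymmetric divisions, read 11.10, 10.81 and 10.35 in the wild-type and 11.28, 11.05 and 10.45 in the knockout arrays. It was higher in the knockout in 3 of 3 pairs, by 0.17 (SE 0.28; limma, adjusted p = 1.00). Its relative Numbl read 6.21, 6.06 and 6.55 in the wild-type and 6.13, 6.01 and 5.82 in the knockout arrays, lower in 3 of 3 pairs, with −0.73 in the pair of number 3 and under 0.1 in size in the other pairs. The Deltex genes Dtx1, Dtx3 and Dtx4, of a family of ubiquitin ligases that bind Notch or its trafficking machinery, differed by −0.12, 0.08 and −0.17, and none passed the test.

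The levels of 7 of the genes differed by replicate number. A limma F test of the number, with genotype in the model, called these 7 of the 31 at an adjusted p under 0.05, against 9.15% of all genes. In all 7 the arrays of number 1 were above those of number 3, and 7.68% of all genes were called with that direction. Notch3 was 5.09-fold and Notch1 4.93-fold higher in number 1 than in number 3 (limma, adjusted p = 0.0163 for each). Maml1 was 3.17-fold higher (limma, adjusted p = 0.0194), Rfng 2.65-fold (adjusted p = 0.0166) and Notch2 2.2-fold (adjusted p = 0.0239). Adam10 was 1.83-fold (limma, adjusted p = 0.0479) and Numb 1.73-fold higher (adjusted p = 0.047). The called genes thus span receptors, an enzyme that modifies them, a protease, a coactivator and an inhibitor. They include 0 of the 5 ligands and 0 of the 7 targets. With 9.15% of all genes called, 0 in lists this small does not set these roles apart. Jag1 was 3.41-fold and Dll3 2.72-fold higher in number 1 than in number 3 without being called (limma, adjusted p = 0.0792 and 0.112).

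**Figure D3:**
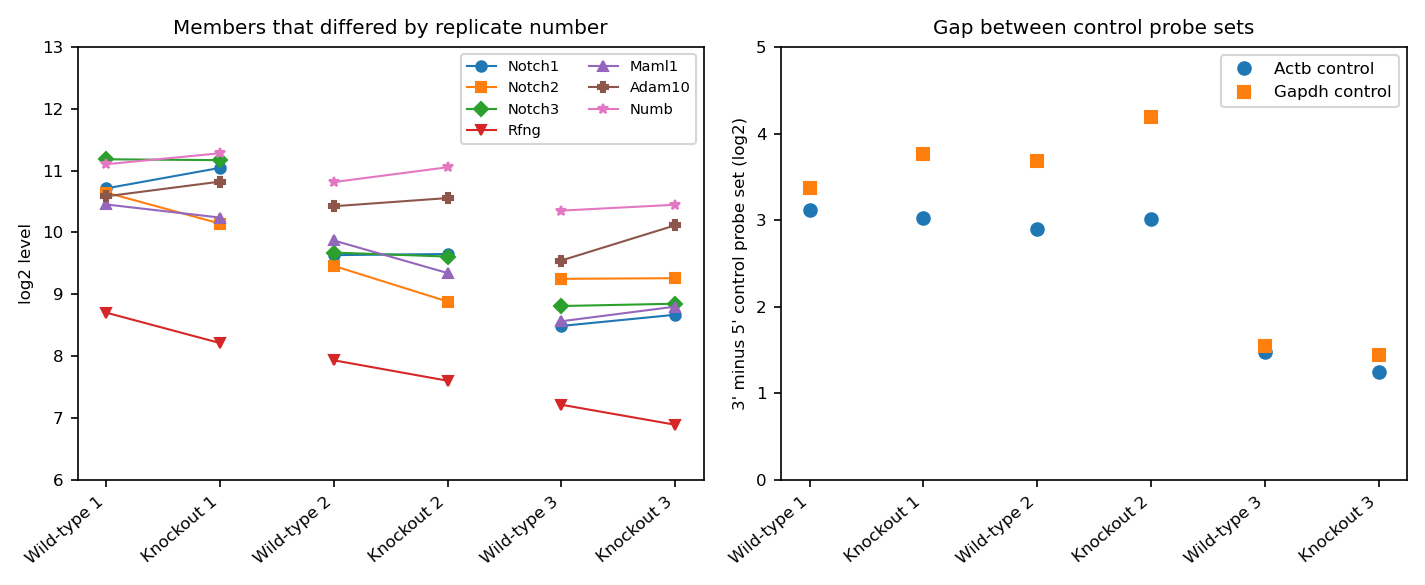
Left, log2 level (y axis) of the 7 Notch genes that differed by replicate number, with lines joining the wild-type and knockout array of a number (x axis). Right, the 3′ minus 5′ difference of the Actb and Gapdh control probe sets (y axis, log2) in the same arrays. The genes were higher in both arrays of number 1 than in both of number 3, and the control gap was 1.25 to 1.54 in number 3 and 2.90 to 4.20 elsewhere.

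Variation by number was common across the whole array. As a share of each gene's sum of squares over the 6 arrays, the number took a median of 62.6% among the 31 genes and 53.4% among all genes, and genotype took 8.80% and 8.93%. For the 4 receptors the median share of the number was 95.7%. Of the genes above the array median, the number was called for 7 of 27 Notch genes, or 25.9%, and for 14.2% of all such genes. Number 1 was above number 3 for 22 of the 31 genes and for 9862 of the 18193, with a median difference of 0.32 against 0.03. Among genes above the array median it was so for 22 of 27 Notch genes and for 6773 of 11212 genes. The median difference there was 0.36 against 0.13. The control probe sets set number 3 apart from the other numbers. The Gapdh 3′ minus 5′ gap was 3.38 to 4.20 in the arrays of numbers 1 and 2 and 1.54 and 1.44 in those of number 3. The Actb gap was 3.12 and 3.03 in number 1 and 2.90 and 3.01 in number 2. Notch1 and Notch3 also fell between numbers 1 and 2, from means of 10.88 and 11.18 to 9.64 in each. Notch2 had means of 10.39, 9.17 and 9.25 in numbers 1, 2 and 3. The part of RNA quality or labelling in the differences by number was not tested.

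Other probe sets of the same genes followed the number in some cases and not in others. A second Notch1 probe set read 8.02, 7.04 and 6.49 in the wild-type and 7.85, 7.02 and 6.88 in the knockout arrays, and a second Notch3 probe set read 9.05, 7.56 and 6.08 and 8.75, 7.23 and 6.38. Both were highest in number 1 and lowest in number 3, as was the second Maml1 probe set, with a difference between these numbers of 1.31. A further Adam10 probe set went the opposite way, at 4.11, 4.40 and 6.16 in the wild-type and 4.47, 4.42 and 7.60 in the knockout arrays. The second Rfng and Numb probe sets differed by −0.40 and −0.65, against 1.41 and 0.79 in the ones used. The second Notch2 probe set differed by −0.20, against 1.14 in the one used. The other Jag1 probe sets differed by −0.003 and −0.23, against 1.77 in the one used. These further Notch2 and Jag1 probe sets lay below the array median. With all probe sets of a gene averaged, the number was called for 3 of the 31 genes, Notch1, Notch3 and Maml1, and for 750 of all genes. Where on their transcripts these probe sets lie is not given in the sources used here.

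**Figure D4:**
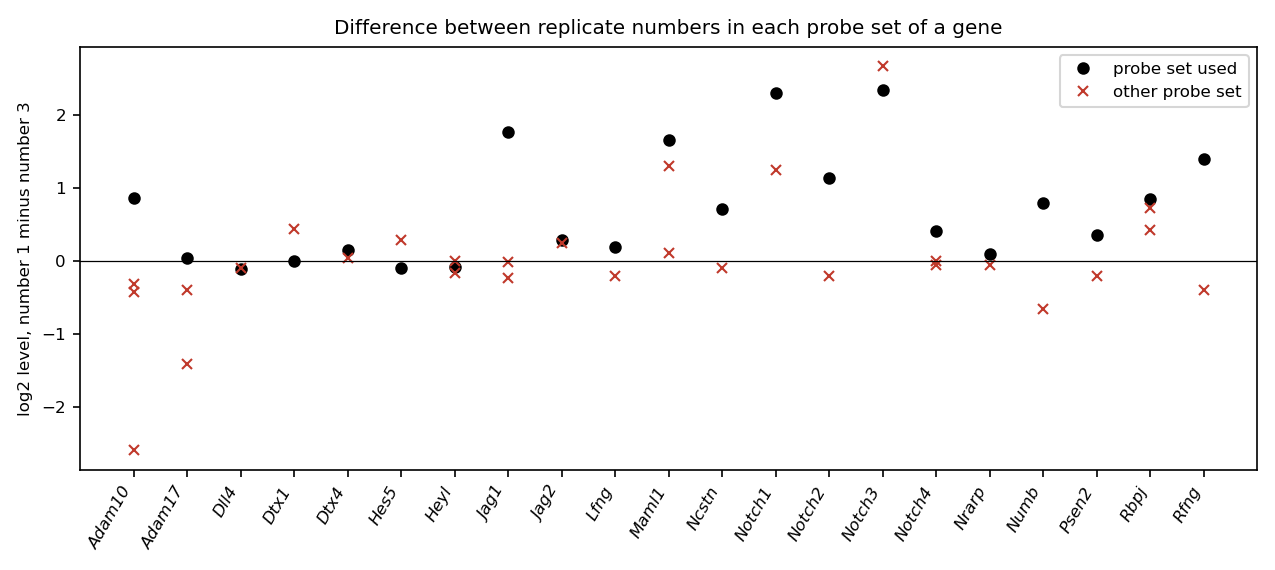
Mean log2 level of the arrays of number 1 minus that of number 3 (y axis) for each probe set of the 21 Notch genes with several (x axis). Black circles are the probe sets used and red crosses the others. Notch1 and Notch3 lie above 0 in both of their probe sets, while 1 further probe set of Adam10 lies at −2.59 beside 0.87 for the one used.

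A wider list of 46 pathway genes, from glycosyltransferases to corepressors, was read in the same fits, and 43 were measured. The unblocked and blocked fits called 0 of the 43, with 20 lower and 23 higher in the knockout and a median difference of 0.02. At an unadjusted p under 0.05 the blocked fit gave 5 of the 43, against 8.94% of all genes. The genotypes did not overlap for 1 of the 43, against 7.92% of all genes. This was Psenen, a gamma-secretase subunit, at 11.64, 11.58 and 11.58 in the wild-type and 11.71, 11.74 and 11.73 in the knockout arrays, a difference of 0.13 (SE 0.11; limma, adjusted p = 1.00). The number was called for 10 of the 43, or 23.3%, against 9.15% of all genes. Among these, Spen, a corepressor that binds RBPJ, read 9.23, 7.80 and 7.01 in the wild-type and 9.19, 7.61 and 7.27 in the knockout arrays, and Crebbp, a histone acetyltransferase of the activating complex, differed between numbers 1 and 3 by 2.14.

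Of 18 genes known to respond to Notch in mesoderm, vessels or blood, all were measured. Both fits called 0, with 13 lower and 5 higher in the knockout and a median difference of −0.20, and the blocked fit gave 8 at an unadjusted p under 0.05, where it gave 8.94% of all genes. The number was called for 7 of the 18, or 38.9%, against 9.15% of all genes. The genotypes did not overlap for 1 of the 18, against 7.92%. This gene, Epha4, a receptor that Mesp2 induces at somite borders, read 9.01, 8.04 and 7.97 in the wild-type and 7.89, 7.04 and 7.70 in the knockout arrays, a difference of −0.79 (SE 0.34; limma, adjusted p = 1.00, and 0.224 with the block). Runx1, needed for blood stem cell emergence, read 8.52, 7.92 and 7.02 in the wild-type and 7.67, 6.80 and 6.36 in the knockout arrays, and had the lowest blocked adjusted p of the list, 0.0893 (limma). Efnb2, an arterial marker, read 11.44, 11.46 and 10.50 in the wild-type and 10.89, 10.28 and 9.68 in the knockout arrays, lower in 3 of 3 pairs. Without the arrays of number 3, the blocked fit called 6 of the 18, against 4.48% of all genes: Mesp2, Epha4, Efnb2, Runx1 and Cxcr4 lower and Unc5b higher. Epha4 then differed by −1.06 and Efnb2 by −0.86. Without the arrays of number 2 it called 1 of the 18, Snai2, with a difference of −1.49, against 1.47% of all genes, and without those of number 1 it called 0, against 0.275%.

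Several of these responsive genes also mark cell types whose markers differed between the arrays. The 10 blood progenitor markers, which include Runx1, had a mean log2 level of 7.01 to 7.25 in wild-type and 5.25 to 5.78 in knockout arrays, and 1 was called lower without and 6 with the block. The 10 endothelial markers ranged from 6.29 to 6.63 in wild-type, read 7.01 in knockout arrays 1 and 2, and read 5.49 in knockout array 3. The 8 markers of undifferentiated ES cells had a mean log2 level of 8.16 to 8.44 in wild-type arrays. In knockout arrays 1, 2 and 3 it was 8.61, 8.27 and 8.87. Their median difference was 0.06 in the pairs of numbers 1 and 2 and 1.11 in that of number 3. Knockout array 3 was the highest of the 6 for 4 of these markers and the lowest for 2. Of the 8, Dppa5a alone was called in the blocked fit, higher in the knockout. The part of these cells in the values of Runx1, Efnb2 and the ligands was not tested.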

How the data were processed

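The authors deposited 1 log2 level per probe set and array. Per the submitters' processing notes, RMA was used through affy, with versions not given in the sources used here. RMA as usually run corrects background, brings the arrays to one distribution and summarises the probes of a probe set. Each array held 45101 probe sets: 64 controls, 34945 with 1 annotated gene, 932 with several and 9160 with none. Where several probe sets read a gene, that of the highest mean stood for it, which left 18193 genes. Names were matched to RefSeq tables of GRCm38.p6, and promoter windows were searched for motifs on both strands.

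The genotype comparison used lmFit and eBayes of limma 3.58.1 (R 4.3.3), with Benjamini-Hochberg adjustment over all 18193 genes and a threshold of 0.05, first without and then with the replicate number as a block. The numbers were taken to pair the arrays: the deviations of same-numbered arrays from their genotype means correlated at 0.698, 0.350 and 0.446 across 45037 probe sets, above the limit of 0.1. The number itself was tested by a limma F test beside genotype. Replicates share no stated origin, so p-values measure only the spread between these arrays, and precision is limited by how few they are. Both models were first tested on simulated data. Python 3.11.15 with pandas 2.3.3 and matplotlib 3.10.9 searched the promoters and drew the figures.

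The genes, lists and tests were chosen with earlier results of these data known. All members were named. From the other lists the rule took genes past the threshold or, failing that, those with the largest difference whose genotypes did not overlap. From each marker list it took the 3 with the highest mean. Values of all 3 are given here only for the paraxial and presomitic and the cardiac lists, which was a choice. The rule did not cover Spen, Crebbp, Efnb2, Cxcr4, Unc5b and Snai2, nor Runx1 and Mesp2 as responsive genes. Nor did it cover the markers Tbx6, Ripply2, Uncx, Pdgfra, Mesp1, Tal1, Lmo2 and Dppa5a where single values or signs are given. All of these were named with their values already seen. The alternatives were the block, each array or pair left out, array weights, a random block, other probe set choices, dim probe sets left out, quantile normalisation and centring. Leaving out both arrays of number 3 without the block, and the genotype-by-number terms, were chosen after seeing the data.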

Additional observations from a re-analysis of the deposited data

How the results depend on the processing

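Over 23 settings, 705 values of single Notch genes were recomputed, of which 687 kept their direction and side of the threshold or stayed within the replicate spread, 7 moved further, 7 reversed and 4 became calls (a reversal was counted only for the 10 genes with 1 sign in all 3 pairs). Limma called 4 genes in all and 0 of the 31 Notch genes. The replicate block called 62 genes, a random block 37, array weights 68, the block with probe sets averaged 48, with shared probe sets left out 58 and with dim genes left out 55. The block without number 1, 2 or 3 called 50, 267 and 815 genes. Leaving out 1 array without the block gave 1 to 6, and leaving out number 3, chosen after seeing the data, gave 2. Among the Notch genes, genotype calls appeared only in the block without number 2 (1, Jag1) and without number 3 (3, Notch2, Dll1 and Dll3). In the same fits the responsive genes had 1 and 6 calls. The median difference of the Notch genes was −0.01. It was −0.0632 and 0.0520 in the block without number 2 and 3, 0.0520 without number 3, −0.0750 after quantile normalisation, and −0.16 to 0.10 with 1 array left out. With probe sets averaged, the number was called for 3 Notch genes and 750 genes. With 1 array left out the sign turned for 19 of the 31 genes, 15 of which already had mixed signs between pairs. Among the 10 genes with 1 sign in all pairs, it reversed for Notch1 with array weights (−0.0434), and with 1 array left out for Notch1 (−0.45 to 0.74), Notch4 (−0.0534 to 0.23), Adam10 (−0.00642 to 0.51) and Numb (−0.0315 to 0.41). The cause of these shifts was not tested.

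For the receptors the numbers lay further apart than the genotypes, so the unblocked intervals were wide. The blocked intervals hold only in so far as the numbers pair the arrays, which the labels do not state. The means of 4 genes were below the array median, and the files give no detection calls.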

Other observations

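Both arrays of number 3 read higher than the other 4 in probe sets of Adam10 and Adam17 that were not used for these genes because their means were lower. The further Adam17 probe set read 4.09, 4.44 and 5.28 in the wild-type and 4.64, 4.27 and 6.25 in the knockout arrays, while the one used stayed between 9.34 and 9.69. In the third Rbpj probe set the arrays of number 1 were 0.42 above those of number 3, against 0.85 in the one used, so all 3 Rbpj probe sets had the same direction. The 18S ribosomal RNA control read 11.93 and 12.10 in the arrays of number 3 and 8.51 to 9.39 in the others.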
